A study of Oreolalax rhodostigmatus with 13 samples.

Results

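Crystallin gamma E is described here through the unigene Cluster-29057.17957, an assembled transcript whose best protein hit is the gamma E crystallin of Xenopus laevis. It was chosen as a lens gene in a tissue pool that includes eyeballs, and it is 1 of 249088 unigenes in the deposited expression table. RNA was sequenced from 13 wild tadpoles of *Oreolalax rhodostigmatus*, a cave-breeding toad with see-through larvae that turn dark under light, all at Gosner stage 25. Control tadpoles (n = 4) were killed at once on capture in the dark zone, short-term exposed tadpoles (n = 6) after 4 h in light and long-term exposed tadpoles (n = 3) after 30 h in light, with 1 library made from each animal. Exposed tadpoles were held in a cage at the cave entrance, with a lamp after dusk, so light, time of day and time in captivity cannot be told apart. By the methods each tube pooled a tadpole's eyeballs, dorsal skin, liver and a piece of tail, whereas the labels list skin, eyeball and liver. No tadpole was kept in the dark for as long as the exposed groups were kept in light.

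Crystallins are the structural proteins that fill the fibre cells of the vertebrate lens, where they keep the tissue clear and refractive. Gamma crystallins are small monomers of the beta and gamma crystallin family and are made mainly while fibre cells differentiate. In a library of pooled tissues a lens transcript comes from a minor part of the RNA, and fewer lens cells and less RNA per cell cannot be told apart. Names were held for only 1597 of the 249088 unigenes, a small part of those that the study annotated. Lens or retina transcripts outside that part could not be searched for. The names held included 1 crystallin, 0 other lens markers and 0 retina markers, so the lens label rests on this gene's own best hit. Gamma crystallins occur as several near-identical copies in frogs, and how reads shared among such copies were counted is not stated, so the level is uncertain to that extent.

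Expression was measured as FPKM, fragments scaled to transcript length and to the mapped reads of the library. Control tadpoles 1 to 4 had crystallin levels of 1.04, 0.98, 0 and 0.48 FPKM. Short-term exposed tadpoles 1 to 6 had 0.91, 0.89, 1.46, 2.15, 1.36 and 0.66 FPKM. Long-term exposed tadpoles 1 to 3 had 7.83, 6.77 and 7.33 FPKM. All long-term exposed tadpoles were above every other tadpole, while the control and short-term exposed tadpoles overlapped. The transcript was above 0 in 12 of 13 libraries. It was listed at 0 in control 3, where the value may mean no reads or a failed estimate.

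**Figure D1:**
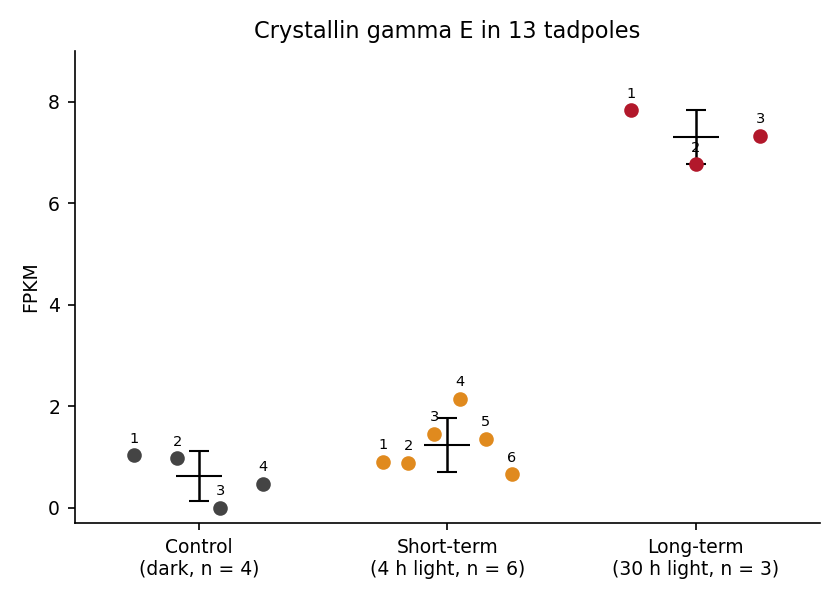
Crystallin gamma E in FPKM (y axis) for each of the 13 tadpoles, by light group (x axis), with numbers marking the replicate, black dashes the group means and whiskers the SD. The long-term exposed tadpoles lie between 6.77 and 7.83 FPKM, above the highest short-term exposed tadpole at 2.15 and the highest control at 1.04.

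The group means followed the order of exposure, from 0.625 ± 0.486 FPKM (SD, n = 4) in control to 1.24 ± 0.54 FPKM (SD, n = 6) in short-term exposed and 7.31 ± 0.53 FPKM (SD, n = 3) in long-term exposed tadpoles. The first step of this order lay within the spread of the tadpoles. The long-term exposed mean was 11.7 times the control mean and 5.9 times the short-term exposed mean, while the short-term exposed mean was 1.98 times the control mean. Taken tadpole by tadpole, the lowest long-term exposed value was 6.51 times the highest control and 3.15 times the highest short-term exposed value. Over all tested unigenes, 3.94% had every long-term exposed library above every other library. A lowest long-term exposed value of at least 3 times the highest of the others, where that one was above 0, was reached by 0.370%.

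Within each library, the place of the crystallin moved with its level. In the long-term exposed libraries, 6.63%, 9.92% and 8.11% of the unigenes above 0 had a higher FPKM than the crystallin. In the short-term exposed libraries this share ranged from 23.7% to 48.8%. In the controls other than control 3 it ranged from 34.9% to 59.9%. The transcript thus stood near the top of the detected unigenes after 30 h and nearer the middle of the list in the other groups.

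Facts of the libraries were set beside these values. The number of unigenes above 0 was 140196 to 147363 in the long-term exposed libraries, 112990 to 134725 in control and 91929 to 136138 in short-term exposed libraries, and the study's table of clean reads gives its highest totals to the long-term exposed libraries. The part of depth in the crystallin difference was not tested. Sums of FPKM were close, at 983190 to 1070969 per library. Correlations of libraries were taken on log10(FPKM + 1) over all unigenes. Short-term exposed 1 and long-term exposed 1 had the lowest mean correlations with their own groups, at 0.764 and 0.773. Short-term exposed 1 reached 0.803 with a library of another group, but short-term exposed 2 and 5 reached 0.814 and 0.81. At 0.91 and 7.83 FPKM of crystallin, short-term exposed 1 and long-term exposed 1 sat with the rest of their groups. Control 3 had 649 unigenes that were at 0 in it alone, within the range of 554 to 5684 over the libraries. The 5684 belonged to short-term exposed 5, which also had the fewest unigenes above 0, at 91929, and 1.36 FPKM of crystallin.

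The comparison of long-term exposed with control tadpoles asks how the transcript differed between 30 h of light and the dark. Crystallin gamma E was higher by 3.84 on the scale of log2(FPKM + 0.1) after 30 h (SE 0.75, 95% interval 2.24 to 5.44), in 3 of 3 tadpoles against every control. With limma over all tested unigenes the adjusted p was 0.0173. Of all unigenes tested, 0.976% were called higher in this comparison and 0.399% lower, and the median difference over all of them was 0.20. The added 0.1 keeps the value of control 3 finite and sets how far that 0 lies from the rest. With 1 added in its place the difference was 2.41 (limma adjusted p = 0.000816). The 0 of control 3 enlarged the difference, as the fit without that library below shows. An exact permutation test of this gene alone, two-sided, gave p = 0.0286, the smallest that 4 against 3 tadpoles allow, and 0.0429 after adjustment over the 3 pairs of groups. This call depended on having all of the long-term exposed tadpoles: without tadpole 1, 2 or 3 of that group the difference was 3.79, 3.89 or 3.84 with limma adjusted p of 0.0974, 0.0972 or 0.101. Without control 3 it was 3.05, with an adjusted p of 0.018, and the call was also lost with a pseudocount of 0.01 (4.77, limma adjusted p = 0.101), with only these groups in the fit (limma adjusted p = 0.0591) and without short-term exposed 1 and long-term exposed 1 together (3.79, limma adjusted p = 0.123).

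The crystallin is on the study's own list of light-inducible unigenes, which was drawn from these same libraries, so its direction here is not independent evidence. It is not on the stricter list that also required steps between the groups. Among the 199 unigenes of the first list with an amphibian best hit that were tested, the crystallin took place 28 by the size of its difference between long-term exposed and control, where the median was 2.61 on the log2 scale.

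After 4 h of light, the level could not be told from that of the dark controls. The short-term exposed group was higher by 1.28 on the log2 scale (SE 0.63), with an interval of -0.07 to 2.63 and a limma adjusted p of 0.489. That interval includes 0 and also differences about as large as the one between 4 h and 30 h, so the p does not show that 4 h left the level unchanged. In this comparison 0.0408% of unigenes were called higher and 0.0401% lower, 60 and 59 of the 147195 fitted. These counts depended on short-term exposed 1. Without it 2662 of 142281 were called higher and 482 lower, and without long-term exposed 1 as well 4346 and 605 of 134804. The crystallin did not pass in either fit, at 1.34 in both (limma adjusted p = 0.454 and 0.474). With all tadpoles of both groups, the exact permutation test, two-sided, gave p = 0.0762, where 0.00476 was the smallest possible. All 6 short-term exposed tadpoles were above control 4, at 0.48 FPKM, and 3 of them were above the highest control. The size of the difference rested on control 3, since without that library it was 0.49 on the log2 scale.

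Between 4 h and 30 h of light, the difference was 2.56 on the log2 scale (SE 0.69, 95% interval 1.08 to 4.04), with every long-term exposed tadpole above every short-term exposed tadpole. The limma adjusted p was 0.0613 and missed the threshold of 0.05, beside 2.10% of unigenes called higher and 0.957% called lower. An exact permutation test of the gene alone, two-sided, gave p = 0.0119, the smallest that 6 against 3 tadpoles allow, and 0.0357 after adjustment over the 3 pairs. The gene was chosen with earlier results of these data known, so no permutation p given here allows for its choice among all unigenes. The spread that limma used was shared over the 3 groups and included the 0 of control 3. Without control 3 the adjusted p was 0.0143 for the same difference of 2.56, and without long-term exposed 1, 2 or 3 it was 0.148, 0.183 or 0.201. Every long-term exposed library was above every short-term exposed library for 7.00% of unigenes, and above every control for 7.71%.

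Over the 3 groups together, limma's F test gave an adjusted p of 0.0324, and 2.25% of unigenes passed this test. The exact permutation test over all assignments of the 13 tadpoles to groups of these sizes gave p = 0.00035, from 21 of 60060 assignments with a separation at least as large. The F call was lost without control 4, at an adjusted p of 0.0535, and without long-term exposed 1, 2 or 3, at 0.093, 0.135 and 0.143.

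**Figure D2:**
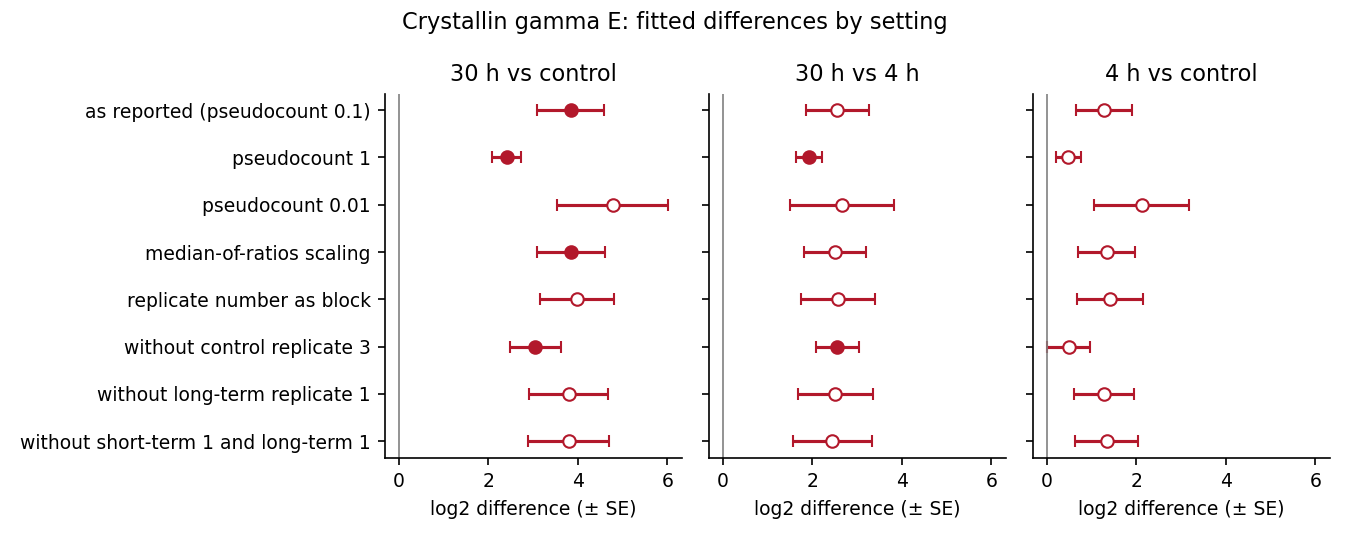
Difference of crystallin gamma E on the log2 scale (x axis, bars ± SE) for each pair of groups (panels), under the reported setting and 7 of the alternatives (y axis), with filled markers where the limma adjusted p is under 0.05 and open markers elsewhere. Long-term exposed against control stays between 2.41 and 4.77, while short-term exposed against control has no filled marker and is 0.49 without control 3.

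How far the level had moved at 4 h depended on the scale, and on the log2 scale also on control 3 and the pseudocount. The mean of the short-term exposed group had covered 9.17% of the distance in FPKM from the control mean to the long-term exposed mean. On the log2 scale it had covered 33.3%, or 1.28 of 3.84, with the wide interval given above for the difference at 4 h. It was 0.49 of 3.05 without control 3 and 0.48 of 2.41 with a pseudocount of 1, both smaller shares. With a pseudocount of 0.01 it was 2.12 of 4.77, a larger share. Among the 2071 unigenes that passed the F test and were highest on average after 30 h, the median of the share in FPKM was 0.0%, and 83.8% had a smaller share than the crystallin. These shares come from the comparison that chose those unigenes and are given as a description.

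The SD in FPKM was similar in the 3 groups, so relative to the mean it was smallest where the mean was highest. The coefficient of variation, the SD as a percentage of the mean, was 77.8% in control, 43.6% in short-term exposed and 7.25% in long-term exposed tadpoles, and without control 3 it was 36.9% in control. The highest long-term exposed value was 1.16 times the lowest, against 3.26 times in the short-term exposed group and 2.17 times among the controls above 0. Of 14820 tested unigenes whose long-term exposed mean was within 2-fold of that of the crystallin, 4.84% had a smaller coefficient of variation in those libraries, and their median was 32.7%. With 3 tadpoles the coefficient itself is imprecise.

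Genes of the other tissues in the pool were read beside the crystallin. The lists were built from the names at hand and held 19 entries for eye and brain, pigment cells, liver, skeletal muscle and epidermis, of which 16 could be tested. Those names come in part from the study's lists of light-inducible unigenes, drawn from these same libraries. The lists were also written with earlier results of these data known. The counts below set such entries beside unselected unigenes and are a description only. Against control, 4 of the 16 were higher after 30 h by limma, beside 0.976% of all unigenes, 0 were lower and 12 did not pass, with a median difference of 2.31 on the log2 scale beside 0.20 over all unigenes. A difference at an unadjusted p under 0.05 was found for 11 of the 16, all higher, beside 7.28% of all unigenes that were higher at such a p. Without short-term exposed 1 and long-term exposed 1 together, limma called 0 of the 16 beside 0.297% of all unigenes, and 10 were higher at an unadjusted p under 0.05, beside 6.82%.

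PAX6, a transcription factor of eye and brain development, was the only entry listed under eye and brain. The tubes held eyeballs as well as skin, and which of these the pigment cell entries came from was not tested. It was too low to be tested. Its level was 0.68, 0.17, 0 and 0 FPKM in controls 1 to 4. In short-term exposed tadpoles 1 to 6 it was 0, 0, 0.23, 0.19, 0 and 0.18 FPKM. Long-term exposed tadpoles 1 to 3 had 0.14, 0 and 0 FPKM. PAX6 was at or near 0 in every group, and the long-term exposed tadpoles, which had the most crystallin, had 0.14 FPKM at most.

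The liver entries, all of albumin or fibrinogen alpha, were like the crystallin higher after 30 h than in control. Albumin, the main plasma protein made by the liver, was at 1283, 2176, 2057 and 852 FPKM in controls 1 to 4. In the short-term exposed group it ranged from 538 to 2492 FPKM with a median of 885. In long-term exposed tadpoles 1 to 3 it was 8060, 9352 and 11982 FPKM. Like the crystallin, albumin did not overlap between the long-term exposed tadpoles and the others, with a difference from control of 2.70 (SE 0.51, limma adjusted p = 0.013). Every long-term exposed library was above every other library for 3.94% of all tested unigenes. The 2 tested unigenes of fibrinogen alpha, a clotting protein made by the liver, were higher by 4.92 (limma adjusted p = 0.039) and 4.57 (limma adjusted p = 0.00369). So 3 of the 3 tested liver entries were called higher, beside 0.976% of all unigenes, which were not selected as these entries were. This does not extend to liver genes in general. A further fibrinogen alpha unigene was listed at 0 in all controls and short-term exposed tadpoles and at 0.41, 0.54 and 0.23 FPKM in the long-term exposed ones. The albumin call was lost without any single long-term exposed tadpole, with adjusted p up to 0.0959, and the first fibrinogen alpha call was lost without any single control or long-term exposed tadpole or short-term exposed 3, with adjusted p up to 0.176. The albumin call was also lost with median-of-ratios scaling (limma adjusted p = 0.0721), and the first fibrinogen alpha call with a pseudocount of 0.01 (limma adjusted p = 0.09).

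Of the pigment cell entries, 7 of 8 had their highest mean after 30 h. How many of all unigenes did so was not counted, so this number has no baseline. The summed level of the 8 entries was 5.02 to 16.0 FPKM in control, 7.55 to 19.4 FPKM in short-term exposed and 29.8 to 64.0 FPKM in long-term exposed tadpoles. Against control, 1 of the 8 was called higher, beside 0.976% of all unigenes. It was PMEL, which forms the fibrils of melanosomes, at 2.60 on the log2 scale (limma adjusted p = 0.0466). The other 7 did not pass, and the median was 2.39 over the 8. The PMEL call was lost without any single control or long-term exposed tadpole, or without short-term exposed 1 or 4. Against short-term exposed tadpoles, 2 of 8 were higher, beside 2.10% of all unigenes. They were the isoforms X3 and X1 of melanoregulin, a protein of melanosome transport in mice, with limma adjusted p of 0.00849 and 0.0195. The enzymes of melanin synthesis TYR, TYRP1 and DCT differed from control by 2.50, 3.20 and 2.82 on the log2 scale and did not pass, with limma adjusted p of 0.0616, 0.324 and 0.162. TYR passed with a pseudocount of 1, with median-of-ratios scaling, with array weights and without short-term exposed 5, at adjusted p of 0.0255, 0.0199, 0.0191 and 0.0447. MLANA, a melanosome protein, differed by 1.38 (limma adjusted p = 0.285), and its long-term exposed tadpole 1, at 3.81 FPKM, lay below the highest control at 4.17. DCT overlapped too, with 1.87 FPKM in long-term exposed 1 and 2.46 in short-term exposed 2. For TYR, TYRP1, PMEL and both melanoregulin isoforms, every long-term exposed tadpole was above every other, as for albumin and the crystallin. This held for 3.94% of all tested unigenes. The isoform X1 of PMEL took another course. It was listed at 0 in every control, had a median of 1.33 FPKM in short-term exposed tadpoles with 2.06 at most, and was at 0 in 2 of the 3 long-term exposed tadpoles and 1.26 FPKM in the other. These 8 entries are named in the study's own figures and were drawn from these libraries.

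No muscle or epidermis entry passed against control, and their differences were not tested against those of the other lists. Nebulin, a protein of the muscle thin filament, was 7.66 ± 2.21 FPKM (SD, n = 4) in control and 13.7 ± 6.26 FPKM (SD, n = 3) in long-term exposed tadpoles, a difference of 0.77 (limma adjusted p = 0.533). Of the 3 tested muscle entries, 1 had an unadjusted p under 0.05 in limma, titin, the elastic protein of the sarcomere, at 2.34 on the log2 scale (unadjusted p = 0.00515, limma adjusted p = 0.158). Myomesin-2, of the sarcomere's M band, was listed at 0 in all controls and short-term exposed tadpoles and at 0.69, 0.28 and 0.26 FPKM in the long-term exposed ones. Summed muscle entries ranged from 6.02 to 12.4 FPKM in control, 4.1 to 9.73 in short-term exposed and 11.9 to 21.9 in long-term exposed tadpoles. Desmoglein-2, an adhesion protein of desmosomes in epithelia, had 2 unigenes that did not pass, at 0.32 and 1.37 on the log2 scale with limma adjusted p of 0.891 and 0.691 and unadjusted p of 0.636 and 0.261. These 2 unigenes were the only entries under epidermis, and whether they measure skin in this pool was not tested. Their summed level was 11.0 to 36.0 FPKM in control, 4.93 to 43.3 in short-term exposed and 15.3 to 42.1 in long-term exposed tadpoles, so the groups overlapped.

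**Figure D3:**
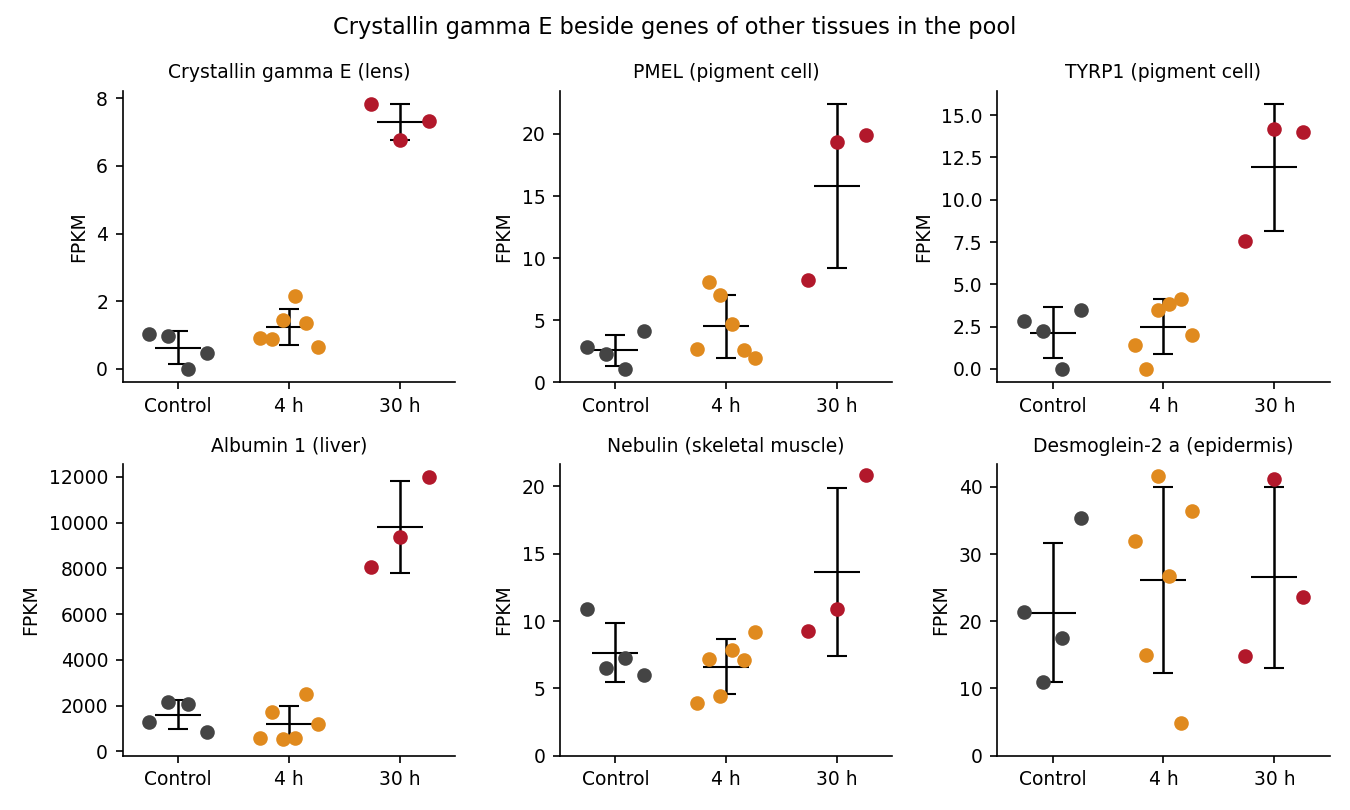
FPKM of single tadpoles (y axes, each panel with its own linear scale) for crystallin gamma E, PMEL, TYRP1, albumin, nebulin and the abundant desmoglein-2 unigene, by light group (x axis), with black dashes for means and whiskers for SD. Albumin, PMEL and TYRP1 lie highest in the long-term exposed tadpoles as the crystallin does, whereas desmoglein-2 overlaps between all groups.

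The crystallin was then set against these genes within each tadpole. Per 1000 FPKM of albumin, it was 0 to 0.811 FPKM in control, 0.514 to 3.61 in short-term exposed and 0.612 to 0.971 in long-term exposed tadpoles. The groups overlapped on this measure, and the highest ratios were in short-term exposed 3 and 4, at 2.71 and 3.61. Per FPKM of the summed pigment cell entries, the ratio was 0 to 0.106 in control, 0.0616 to 0.127 in short-term exposed and 0.113 to 0.263 in long-term exposed tadpoles, so all long-term exposed tadpoles were above the controls but not above the short-term exposed ones. Per FPKM of nebulin it was 0 to 0.151, 0.072 to 0.33 and 0.352 to 0.846 in the same order, with no overlap of the long-term exposed group. Per FPKM of the more abundant desmoglein-2 unigene it was 0 to 0.0897, 0.0181 to 0.276 and 0.164 to 0.528. The long-term exposed tadpoles thus stood apart relative to nebulin and did not relative to albumin. Nebulin was the only muscle entry used in these ratios, so this does not extend to muscle genes in general. The other muscle entries were at 0 in several libraries. Against control after 30 h, titin differed by more (2.34 on the log2 scale) and troponin I by less (-0.05) than nebulin (0.77). The part of the tissue make-up of each tube in the crystallin difference was not tested.

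Within the groups, the tested liver entries did not follow the crystallin. On log2(FPKM + 0.1), the deviations of each tadpole from its group mean had a correlation with those of the crystallin of -0.23 for albumin and -0.48 and -0.47 for the 2 tested fibrinogen alpha unigenes over 13 libraries. The same measure was 0.01 to 0.72 over the 8 pigment cell entries, highest for TYRP1, MLANA (0.53) and PMEL (0.46) and lowest for melanoregulin X3. It was 0.57 for PAX6, 0.38 for titin, 0.07 for nebulin and -0.09 for the abundant desmoglein-2 unigene. These points share libraries and depth, and control 3 carries the largest deviation of the crystallin. Without it, over 12 libraries, the pigment cell entries ranged from -0.16 for TYR to 0.36 for TYRP1. PAX6 was then at 0.51, titin at 0.60, albumin at -0.07 and the fibrinogen alpha unigenes at -0.73 and -0.57. PAX6 and titin were at 0 in several libraries and reached only 0.68 and 0.79 FPKM. Their correlations thus depend in part on which libraries were listed at 0.

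The unigenes most like the crystallin were sought among the 485 others tested that carry a name with an amphibian best hit, 198 of which are on the study's light-inducible list. By the Pearson correlation of log2(FPKM + 0.1) over the 13 libraries, the closest was Cluster-29057.101521, eukaryotic initiation factor 4A-II, an RNA helicase of translation initiation, at 0.93. It was followed by Cluster-29057.25037, N-acylglucosamine 2-epimerase, an enzyme of amino sugar metabolism, at 0.90, and by Cluster-29057.143513, an uncharacterized protein, at 0.89. A further uncharacterized protein, Cluster-29057.35314, and a putative serine protease, Cluster-29057.104916, had 0.87 each. All 5 are on the study's list, so a high level after 30 h was part of how they came to carry a name. Of all 147191 other unigenes tested, 2 had a correlation of at least 0.9 before rounding with 0.1 added, the initiation factor and 1 without an amphibian name.

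The initiation factor was far more abundant than the crystallin. It had 44.93, 42.45, 11.84 and 45.02 FPKM in controls 1 to 4. Short-term exposed tadpoles 1 to 6 had 42.75, 37.05, 31.09, 65.96, 33.52 and 34.76 FPKM. Long-term exposed tadpoles 1 to 3 had 113.8, 136.78 and 186.39 FPKM. As with the crystallin, control 3 was lowest, short-term exposed 4 was the highest outside the long-term exposed group, and that group stood above all others. Its difference from control was 2.16 (SE 0.45, limma adjusted p = 0.028), smaller than the crystallin's 3.84, and the call was lost without any single long-term exposed tadpole, with adjusted p up to 0.167.

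The others differed from the crystallin in their size or in the 4 h group. The epimerase was 0.527 ± 0.151 FPKM (SD, n = 4) in control and 3.29 ± 1.03 (SD, n = 3) in long-term exposed tadpoles, a difference of 2.42 with a limma adjusted p of 0.0272. Cluster-29057.143513 rose from 0.675 ± 0.32 FPKM (SD, n = 4) to 17.2 ± 9.85 (SD, n = 3), by 4.40 (limma adjusted p = 0.00104). Cluster-29057.35314 was at 0.6 ± 0.361 FPKM (SD, n = 4) in control, 6.18 ± 4.07 (SD, n = 6) in short-term exposed and 19.0 ± 6.82 (SD, n = 3) in long-term exposed tadpoles. Its short-term exposed tadpoles were all above the controls, unlike those of the crystallin, though the difference of 3.06 did not pass (limma adjusted p = 0.0727). The serine protease rose from 6.51 ± 1.85 FPKM (SD, n = 4) to 24.1 ± 4.99 (SD, n = 3), by 1.89 (limma adjusted p = 0.0165). The calls of the epimerase and the protease were lost without any single long-term exposed tadpole, without control 3, and for the epimerase also without control 1 or 2, with adjusted p up to 0.188 and 0.139, and those of both uncharacterized proteins held in each of the 13 fits that left out a library.

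**Figure D4:**
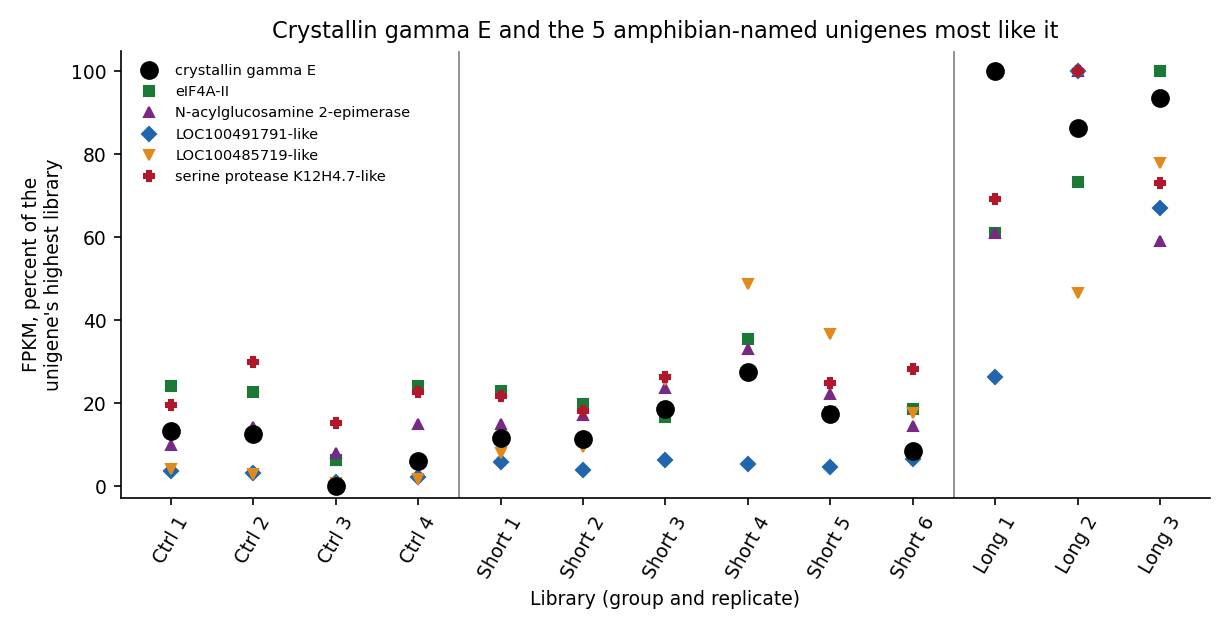
FPKM of the crystallin and of the 5 amphibian-named unigenes with the highest correlation to it, each as a percentage of its own highest library (y axis), over the 13 tadpoles (x axis, by light group), with LOC100491791 standing for Cluster-29057.143513 and LOC100485719 for Cluster-29057.35314. The crystallin is at 86.46% to 100% in the long-term exposed tadpoles and at 27.46% or less in all others, while the uncharacterized protein Cluster-29057.35314 reaches 48.68% in a short-term exposed tadpole.

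By the deviations of tadpoles from their group means, which leave the light groups out, the nearest amphibian-named unigenes were in part others. Cluster-29057.106299, molybdenum cofactor biosynthesis protein 1, an enzyme of the first step of that pathway, had a correlation of 0.87. The initiation factor had 0.84, cathepsin L (Cluster-29057.150996), a lysosomal protease, 0.78, Cluster-29057.35314 0.73 and TYRP1 0.72. Cluster-29057.106299, cathepsin L and TYRP1 were also listed at 0 in control 3. Over the 12 libraries without control 3, the correlation was 0.10 for Cluster-29057.106299, 0.36 for the initiation factor, 0.91 for cathepsin L, 0.77 for Cluster-29057.35314 and 0.36 for TYRP1. The likeness within groups thus rested on control 3 for the molybdenum cofactor enzyme, the initiation factor and TYRP1, and not for cathepsin L and Cluster-29057.35314. Neither Cluster-29057.106299 nor cathepsin L differed between long-term exposed and control past the threshold, at 1.22 (limma adjusted p = 0.772) and 2.30 (limma adjusted p = 0.388). The former was at 14.9 ± 12.1 FPKM (SD, n = 4) in control and 11.9 ± 3.18 (SD, n = 3) in long-term exposed tadpoles, and without control 3 its difference was -0.67.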

How the data were processed

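RNA-seq libraries of 13 single tadpoles were analysed, grouped by the sample labels and the methods. The authors filtered the reads for adapters, undetermined bases and quality, built a joint de novo Trinity assembly, and deposited FPKM values per unigene, rounded to 2 decimals. For the aligner and counter, the tool was not given in the sources used here. Because read counts are not kept in FPKM, no counting interval could be given, and whole reads could not be recovered from the values. Names of unigenes are best protein hits from the study's supplementary tables, of which 1597 unigenes had one at hand. The study reports annotations for many more unigenes, so the names at hand are a part of its annotation.

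Tests ran on log2(FPKM + 0.1) of the 147192 unigenes that reached 0.3 in 3 or more libraries, beside 3 entries summed over several unigenes. In R 4.3.3, limma 3.58.1 fitted the 3 groups to all 13 libraries (mean-variance trend, moderated tests), with Benjamini-Hochberg adjustment over all of them and a threshold of 0.05. The fits were first run on simulated data with independent normal noise. No outlying library was simulated, so that run has no bearing on those described here. Exact permutation tests used all assignments of tadpoles to groups. The rest used pandas 2.3.3, numpy 2.4.6, SciPy 1.17.1 and matplotlib 3.10.9 under Python 3.11.15.

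The genes named were the crystallin, every entry of the tissue lists, and the 5 amphibian-named unigenes with the highest correlation to the crystallin over the libraries and by deviations from group means. The gene and the lists were chosen with earlier results of these data known. Alternatives were leaving out each library, fitting only the groups compared, a one-way F test without the logarithm, a block on the replicate number, array weights, median-of-ratios scaling, pseudocounts of 1 and 0.01, and either no filter or one at FPKM 1. Leaving out short-term exposed 1 and long-term exposed 1 together, and control 3 from the correlations, was chosen after seeing the data. No sequence of the transcript was used here.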

Additional observations from a re-analysis of the deposited data

Results flagged for a closer look

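In the control and short-term exposed groups, the FPKM of each named gene was searched for a tadpole far from the others of its group. The long-term exposed group, with 3 tadpoles, was too small for this search. Over 49 groups of values 5 were found, where chance alone gives about 1 in 20 if values are normally distributed. The crystallin itself had none in the groups searched. In the initiation factor 4A-II (Cluster-29057.101521), control 3 was far below the other controls at 11.84 FPKM and short-term exposed 4 far above its group at 65.96 FPKM, and these were also the lowest control and the highest short-term exposed tadpole for the crystallin. Short-term exposed 3 was far above its group for TYR, at 1.06 FPKM, and for melanoregulin isoform X1, at 0.59 FPKM. Titin was above 0 in 1 control, at 0.09 FPKM in control 1.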

How the results depend on the processing

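The crystallin was highest in the long-term exposed group under every alternative run, and no difference of it changed sign. Long-term exposed against control was 4.77 on the log2 scale with a pseudocount of 0.01 (limma adjusted p = 0.101), 3.84 with only those groups in the fit (0.0591), and 3.79 without both short-term exposed 1 and long-term exposed 1, chosen after seeing the data (0.123). It was 3.05 to 4.22 with a single library left out, and lost its call only without a long-term exposed tadpole. The F test had an adjusted p of 0.141 with a pseudocount of 0.01, 0.0767 without both libraries and 0.0172 to 0.143 with a single library left out. A one-way F test on FPKM without the logarithm gave an adjusted p of 2.68e-05. The study's own list came from a one-way test of these libraries, so that value is not independent of the list. Long-term against short-term exposed passed at 1.92 with a pseudocount of 1 (limma adjusted p = 0.00207) and at 2.56 with only those groups in the fit (0.0196), and was 2.42 to 2.73 with a single library left out (0.0143 to 0.201). It was 2.66 with a pseudocount of 0.01 (0.276). Short-term exposed against control passed under no alternative, at 0.48 with a pseudocount of 1, 2.12 with 0.01 and 0.49 to 1.66 with a single library left out. The cause of these changes was not tested.

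Replicate numbers were taken only to name separate tadpoles. Across groups, the deviations of libraries with the same number had correlations of -0.1086 to 0.0188, and those with different numbers -0.079 to 0.104. A shared number thus came with no higher correlation, but shared handling was not tested. With the number as a block, the F test had an adjusted p of 0.169, long-term exposed against control was 3.99 (0.0994), long-term against short-term exposed was 2.58 (0.227), and 2 of the tissue entries were called higher.

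Of the tissue entries, 4 were called higher against control, 6 with a pseudocount of 1, 2 with 0.01 and 1 to 5 with a single library left out, at 2 without any single control and 1 without any single long-term exposed tadpole. Without both libraries, limma called 0, and 10 had an unadjusted p under 0.05. Troponin I, at -0.05, was at 0.12 with a pseudocount of 1, 0.042 with median-of-ratios scaling, 0.046 with the block and -1.55 to 0.74 with a single library left out. With a single library left out, the abundant desmoglein-2 unigene was at -0.059 to 0.68 and Cluster-29057.106299 at -0.67 to 2.04. Over all unigenes, those called higher in long-term exposed against control numbered 1437, 2327 with a pseudocount of 1, 868 with 0.01, 518 with the block, and 247 without long-term exposed 2.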
